A study of Mus musculus with 18 samples.

Results

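The regions described here are the stretches of accessible chromatin that belong to the clustered Hox genes in lung endothelial cells (ECs) of young and aged mice. Peaks of all 18 deposited ATAC-seq peak lists on chromosomes 1 to 19, X and Y were joined wherever they shared 1 bp or more. Stretches found in 2 or more samples were kept as regions, and a region was taken when the transcription start site (TSS) nearest to its midpoint was that of a gene of the HoxA, HoxB, HoxC or HoxD cluster. This gave 25 regions of 47338, nearest to 17 of the 39 clustered Hox genes. A region is named here by its nearest gene and the distance of its midpoint from that gene's TSS in bp, so that Hoxa5 +254 lies 254 bp downstream of the start of Hoxa5 and Hoxa4 -29 lies 29 bp upstream of the start of Hoxa4.

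The samples were lung ECs of FVB mice, each list from a single mouse: Young Sham (2 months, n = 5), Young Bleo (2 months, n = 4), Aged Sham (18 months, n = 4) and Aged Bleo (18 months, n = 5). Bleomycin was given into the trachea and sham mice received PBS by the same route, and lungs were taken about a month later. All mice carried the Col1α1-GFP transgene, a reporter of collagen-producing cells, and ECs were sorted as CD31+ cells free of CD45, EpCAM and GFP, so that the cells stand for the whole pool of lung ECs and not for a single vessel type. ATAC-seq uses the transposase Tn5 to cut and tag open DNA, and the authors called peaks in each sample separately with MACS2.

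Hox genes encode homeodomain transcription factors that give cells their position along the head to tail axis. They lie in 4 clusters in which the order of the genes follows the order of their expression along the body, with the genes of low number (anterior) at the 3′ end and the genes of high number (posterior) at the 5′ end. Genes of the same number in different clusters are paralogues. Polycomb proteins keep Hox genes that are not in use closed, Trithorax proteins keep those in use open, and adult cells, ECs among them, retain much of the pattern that they took up in the embryo. Hoxa5 and Hoxb5 are known for their part in the growth and branching of the lung, and Hoxa5 also for restraining the growth of new vessels.

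Stretches of the strongest region of each cluster and of the regions on which the comparisons turn are given first, for a selection of them. They are the 200 bases around the strongest summit, on the plus strand of mm10 (RefSeq), except that for Hoxa5, the strongest region of HoxA, only the 195 bases of the region upstream of the TSS are given. Capitals mark the SP/KLF box GGGCGG and the short core AGNTGGC of the CTCF motif on either strand.
Hoxa5 +254, upstream part (chr6:52204588-52204782): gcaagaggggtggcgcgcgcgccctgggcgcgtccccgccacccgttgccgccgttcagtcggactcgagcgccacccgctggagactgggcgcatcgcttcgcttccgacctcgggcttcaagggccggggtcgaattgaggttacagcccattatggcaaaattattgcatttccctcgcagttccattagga
Hoxa4 -29 (chr6:52191845-52192044): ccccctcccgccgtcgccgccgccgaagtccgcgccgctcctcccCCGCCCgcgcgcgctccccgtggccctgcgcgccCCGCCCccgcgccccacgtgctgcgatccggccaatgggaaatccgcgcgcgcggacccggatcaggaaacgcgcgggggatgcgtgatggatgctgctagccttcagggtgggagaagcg
Hoxa7 -3203 (chr6:52221750-52221949): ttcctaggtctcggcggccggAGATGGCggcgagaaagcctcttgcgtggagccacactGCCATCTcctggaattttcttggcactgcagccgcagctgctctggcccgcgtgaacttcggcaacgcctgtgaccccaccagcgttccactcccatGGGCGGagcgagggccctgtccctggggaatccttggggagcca
Hoxb1 +48148 (chr11:96413698-96413897): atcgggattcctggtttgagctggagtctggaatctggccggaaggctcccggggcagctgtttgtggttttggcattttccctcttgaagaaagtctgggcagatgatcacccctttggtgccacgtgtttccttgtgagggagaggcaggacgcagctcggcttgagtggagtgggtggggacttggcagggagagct
Hoxb8 -2945 (chr11:96278888-96279087): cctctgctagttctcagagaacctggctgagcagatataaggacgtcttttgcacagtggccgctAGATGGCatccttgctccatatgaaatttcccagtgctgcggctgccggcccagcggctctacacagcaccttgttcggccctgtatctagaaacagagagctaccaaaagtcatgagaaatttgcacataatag
Hoxc8 -2939 (chr15:102987524-102987723): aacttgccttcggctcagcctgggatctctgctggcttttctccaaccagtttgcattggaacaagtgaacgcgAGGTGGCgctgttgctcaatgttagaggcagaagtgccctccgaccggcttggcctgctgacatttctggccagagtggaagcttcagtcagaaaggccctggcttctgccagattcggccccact
Hoxd12 -1840 (chr2:74673104-74673303): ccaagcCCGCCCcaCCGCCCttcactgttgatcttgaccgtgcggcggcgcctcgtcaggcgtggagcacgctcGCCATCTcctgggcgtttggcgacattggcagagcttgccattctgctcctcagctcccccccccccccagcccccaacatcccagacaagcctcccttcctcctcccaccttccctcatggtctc
Hoxd8 -160 (chr2:74705177-74705376): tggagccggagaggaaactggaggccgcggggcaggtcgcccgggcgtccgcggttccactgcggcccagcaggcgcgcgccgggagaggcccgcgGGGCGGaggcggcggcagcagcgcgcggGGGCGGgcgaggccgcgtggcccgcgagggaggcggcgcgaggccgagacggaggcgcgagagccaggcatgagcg

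By count, regions nearest to a Hox gene were most frequent for HoxB and HoxA, fewer for HoxD and fewest for HoxC. HoxA on chromosome 6 held 6 regions for 5 of its 11 genes and HoxB on chromosome 11 held 13 regions for 8 of 10 genes. HoxC on chromosome 15 held 2 regions for 1 of 9 genes and HoxD on chromosome 2 held 4 regions for 3 of 9 genes. Of the HoxB regions, 9 lay between its first and last TSS, 2 of them called in all samples, and 4 lay beyond. From first to last TSS the clusters spanned 102.6 kb (HoxA), 171.4 kb (HoxB), 113.3 kb (HoxC) and 94.8 kb (HoxD), so these counts are not densities. Of the 25 regions, 9 carried a peak in all 18 samples, 4 in HoxA and 5 in HoxB, and 0 in HoxC and HoxD. This share of 36% was close to the 36.8% of all 47338 regions with a peak in all 18 samples. Another 2 regions were called in 13 to 17 samples, 5 in 7 to 9 samples and 9 in 2 to 5 samples. Across paralogue numbers, 6 of 12 anterior genes (numbers 1 to 4), 8 of 11 central genes (5 to 8) and 3 of 16 posterior genes (9 to 13) had a region, and the 9 regions called in all samples were nearest to anterior genes in 6 cases, to central genes in 3 and to posterior genes in 0. Of the anterior 6, Hoxb1 +34271, Hoxb1 +42178 and Hoxb1 +48148 lie beyond the end of HoxB. Hoxa3 +1289 lies between the starts of Hoxa7 and Hoxa6. These counts rest on the nearest annotated start: with coding transcripts alone there were 39 Hox regions, 13 of them called in all samples.

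**Figure D1:**
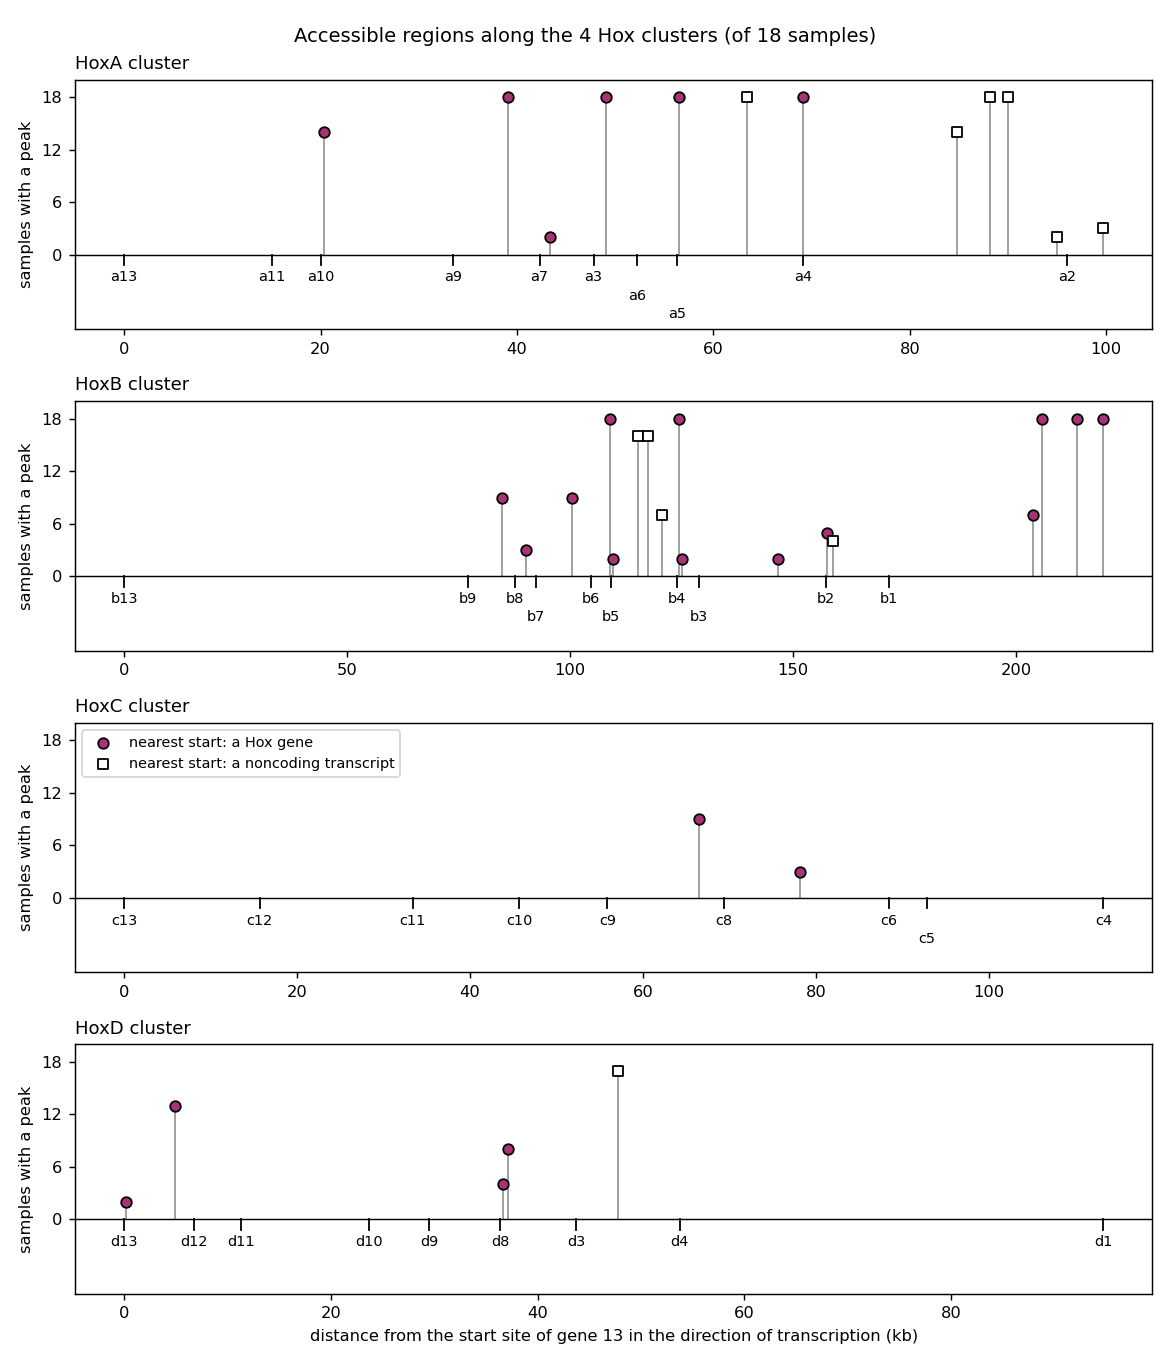
Accessible regions along the 4 Hox clusters. The horizontal axis gives the distance in kb from the start of gene 13 of each cluster in the direction of transcription, ticks below the line mark gene starts (a13 is Hoxa13; 1 HoxA gene start and the region over it are not drawn), and the height of each point gives the number of samples of 18 with a peak. Filled circles are the 25 regions nearest to a Hox gene and open squares are regions within a cluster that are nearest to a noncoding transcript. Points at 18 lie in HoxA and HoxB only, while HoxC has no point above 9.

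In HoxA the called regions ran from Hoxa10 to Hoxa4. Hoxa5 +254 (chr6:52203883-52204782) covers the start and the coding exon at the 5′ end of Hoxa5, and its fold enrichment, the coverage of the summit divided by that of its surroundings, lay between 14.5 and 27.4, with a median of 20.5. Within a sample's own list this ranked Hoxa5 +254 at the 87.3rd percentile of all peaks in the median sample, the highest of the HoxA regions. Hoxa4 -29 (chr6:52191148-52192315), at the promoter of Hoxa4, followed at the 85.3rd percentile with fold enrichments from 14.6 to 28.1. Hoxa7 -3203 (chr6:52221511-52222041), in the intergenic stretch upstream of Hoxa7, and Hoxa3 +1289 (chr6:52211530-52212026), in an intron, were called in all 18 samples at the 54.1st and 49.1st percentile. Hoxa3 +1289 takes its name from the far upstream start of Hoxa3, which the annotation places 47.8 kb along the cluster, between the starts of Hoxa7 at 42.3 kb and Hoxa6 at 52.2 kb, so that it lies beside Hoxa6 and Hoxa7 rather than beside the Hoxa3 coding exons.

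Hoxa10 +319 (chr6:52240327-52240743), in the untranslated part of an exon of Hoxa10, a gene known for the uterus and for blood cells, was the one posterior region of HoxA and was called in 14 samples. Hoxa10 +319 carried fold enrichments of 8.66, 11.9, 8.82, 10.7 and 6.77 in Young Sham 1 to 5, of 6.01, 7.84 and 5.86 in Young Bleo 2 to 4, of 5.94, 7.86 and 7.36 in Aged Sham 1, 2 and 4, and of 5.39, 8.42 and 5.61 in Aged Bleo 1, 2 and 5. It was thus called in all Young Sham samples and missed in Aged Bleo 3 and 4, Aged Sham 3 and Young Bleo 1, and in 0 of the 6 comparisons did that difference in calls pass the test described below. The weakest HoxA region, Hoxa7 +1031 in the untranslated part of an exon of Hoxa7, was called only in Aged Sham 1 and 4, at the 3.70th percentile or lower. Hoxa2, Hoxa6, Hoxa9, Hoxa11 and Hoxa13 had no region.

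In HoxB the regions fell into a set within the cluster and a set beyond its 3′ end. Within the cluster, Hoxb5 -140 (chr11:96303104-96303640), at the promoter of Hoxb5, and Hoxb4 +546 (chr11:96318403-96319223), over a coding exon of Hoxb4, a gene known for the renewal of blood stem cells, were called in all 18 samples at the 55.9th and 36.1st percentile in the median sample. Beyond Hoxb1, the last gene of the cluster and one of hindbrain patterning, 4 intergenic regions lay 32357 to 48148 bp from its start. Of these, Hoxb1 +48148 (chr11:96413509-96414303) was the strongest Hox region of all, at the 91.0th percentile, with fold enrichments from 16.04 to 25.6. Hoxb1 +34271 and Hoxb1 +42178 were called in all 18 samples at the 55.7th and 46.8th percentile, and Hoxb1 +32357 in 7. These regions were assigned to Hoxb1 only because its start is the nearest, and the lists do not say which gene they serve.

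The other HoxB regions were weak. Hoxb8 -2945 and Hoxb6 -4332 were called in 9 samples each, Hoxb2 +325 in 5, Hoxb7 -2197 in 3, and Hoxb5 +398, Hoxb4 +1210 and Hoxb3 -2926 in 2. Hoxb7 -2197 lies in an exon of Hoxb8. Hoxb9 and Hoxb13, the posterior genes of the cluster, had no region. In HoxC the only regions were Hoxc8 -2939 (chr15:102987467-102987733), called in 9 samples, and Hoxc8 +8780, called in 3, both intergenic and nearest to a gene of thoracic patterning. In HoxD, Hoxd12 -1840 (chr2:74673040-74673305), between the limb genes Hoxd13 and Hoxd12, was called in 13 samples at the 27.4th percentile where called. Its fold enrichments were 8.02, 6.49, 6.69 and 5.50 in Young Sham 1, 2, 4 and 5, 4.48, 5.20, 6.72 and 5.86 in Young Bleo 1 to 4, 7.42 and 7.86 in Aged Sham 1 and 2, and 6.55, 6.17 and 9.82 in Aged Bleo 2, 3 and 5. It was thus called in all Young Bleo samples, and the values of the groups overlapped. Both Hoxd8 regions, Hoxd8 -160 and Hoxd8 +283, lie at alternative starts of Hoxd8, a gene of the trunk, and were called in 8 and 4 samples. Hoxd13 +189 was called in 2.

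**Figure D2:**
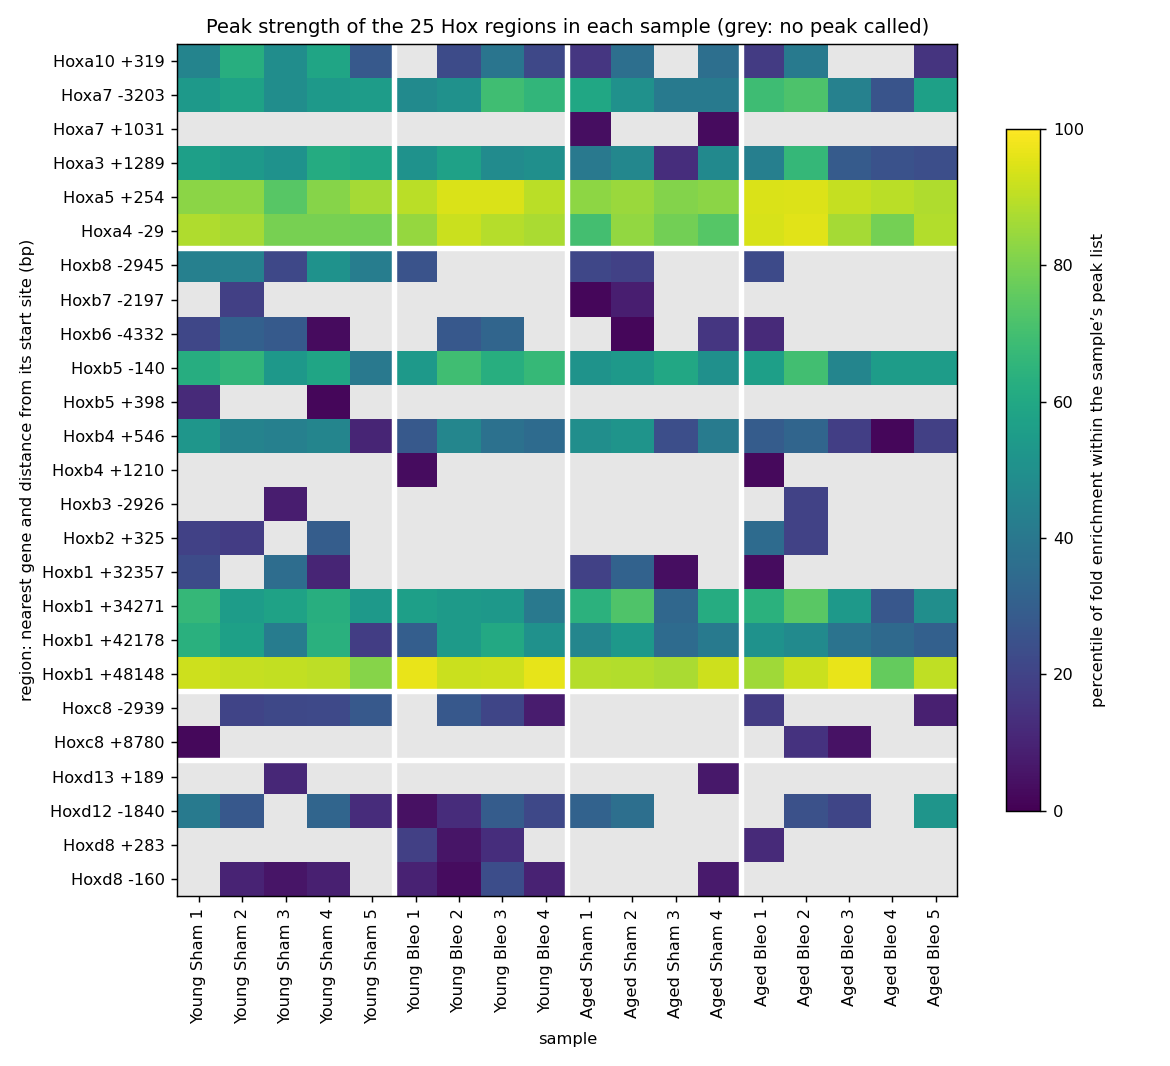
Strength of the 25 Hox regions in each sample. Rows are regions in the order of transcription within HoxA, HoxB, HoxC and HoxD, columns are samples by group, and the colour gives the percentile of a region's fold enrichment within the peak list of that sample, with grey where no peak was called. Hoxa5 +254, Hoxa4 -29 and Hoxb1 +48148 stand at or above the 70.2nd percentile in all 18 samples, and the rows of HoxC and HoxD are mostly grey.

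Few fragments lay behind the weak regions. Solving the deposited fold enrichment and -log10 p for the fragments behind them gave a median of 132 fragments at the summit for Hoxa5 +254, 124.5 for Hoxb1 +48148 and 104.5 for Hoxa4 -29. The same number was 9 for Hoxc8 +8780, 10 for Hoxb7 -2197 and 15 for Hoxc8 -2939 and Hoxd12 -1840, in the samples that called them. The background coverage of the libraries, the fewest fragments expected anywhere, ranged from 1.02 to 1.78. An absent peak at a weak Hox region does not show that the region was closed, and the part of depth in absent peaks was not tested. Hoxb7 -2197, for example, was called from 8 fragments in Aged Sham 1 and not in the 4 Young Bleo samples, whose background coverage was higher. Just inside the rule, the 5 regions called in exactly 2 samples had fold enrichments from 3.78 to 6.08. Just outside it, 8 further stretches nearest to a Hox gene carried a peak in a single sample, 2 in HoxA, 5 in HoxB, 0 in HoxC and 1 in HoxD, among them the start of Hoxa13 in Aged Sham 2 and the start of Hoxd10 in Young Bleo 1.

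Promoters gave a map that was only partly similar. Those called in all 18 samples again lay in HoxA and HoxB only, but HoxB had 1 gene with a called promoter and HoxD 2. A promoter was counted as called in a sample when a region overlapped the 1000 bp before or the 100 bp after a TSS. The promoters of Hoxa4, Hoxa5 and Hoxb5 were called in all 18 samples, that of Hoxd8 in 9, and those of Hoxa2 and Hoxd13 in 2, while 32 of the 39 Hox genes had a promoter in no region. Of all 21000 coding genes, 49.1% had a promoter called in all 18 samples and 42.4% in 0. Within HoxA 7 further regions were nearest to noncoding transcripts and are not among the 25, and of these Gm15050 -149, Gm15050 -2015 and Hoxaas3 -3624 were called in all 18 samples. Within HoxB there were 4 such regions, of which Hoxb5os -2601 and Hoxb5os -4824 were called in 16 samples and the region upstream of Mir10a in 7, and within HoxD there was 1, Hoxd3os1 +153, in 17 samples. Counting every region between the first and last Hox TSS of a cluster gave 12.7 regions per 100 kb in HoxA, 7.58 in HoxB, 5.28 in HoxD and 1.77 in HoxC.

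The median Hox region was richer in CpG than the median of all regions, while single windows ranged from 3 to 35 CpG and from 46 to 81.5% GC. In 200 bp around the summit the median GC content was 63.5% in Hox regions and 53% in all regions, and the median number of CpG dinucleotides was 14 and 4. The median in all regions called in 18 samples was 61% GC and 12 CpG, nearer to that of the Hox regions. The window of Hoxd8 -160, printed above, held 35 CpG and that of Hoxa4 -29 held 34. The SP/KLF box GGGCGG was found in 10 of 25 Hox windows (40%) and in 25.2% of all windows. The ERG core CAGGAAG, the binding letters of a main transcription factor of ECs, was found in Hoxd13 +189, Hoxb4 +1210 and Hoxc8 +8780 (12%) and in 19.9% of all windows. The AP-1 letters TGANTCA were found in Hoxb4 +1210 and Hoxb1 +34271 (8%) and in 8.63% of all windows. The HOX-PBX letters TGATTNAT were found in Hoxb2 +325 (4%) and in 2.17% of all windows, and the homeodomain letters TAATTA in 0 Hox windows and 2.33% of all windows.

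The full core of the CTCF motif was found in 0 Hox windows and in 6.78% of all windows, and the retinoic acid element in 0 and 0.129%. After the windows had been read, the CTCF core was also searched with 1 letter free to differ, which matched 4 Hox windows (16%) and 17.8% of all windows, and as its short core AGNTGGC, which matched 8 (32%) and 21.03%. The 4 windows of the first search were those of Hoxd12 -1840, Hoxa7 -3203, Hoxa10 +319 and Hoxb8 -2945, and the short core was also found in Hoxb6 -4332, Hoxb5 +398 and Hoxc8 -2939, among others. Windows are 200 bp of reference sequence on both strands, the short core can lie within the longer CTCF letters, and a match is a run of letters and not a bound site.

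The number of Hox regions called per sample ranged from 9 to 18 of 25. Young Sham samples called 17, 17, 17, 18 and 13, Young Bleo samples 14, 15, 15 and 13, Aged Sham samples 15, 15, 10 and 14, and Aged Bleo samples 17, 14, 11, 9 and 12. Young Sham 4 called the most, Young Sham 1 to 3 and Aged Bleo 1 followed with 17 each, and the ranges of the 4 groups overlapped. The share of all 47338 regions called per sample ranged from 43.0% to 80.4%, with group medians of 75.5% in Young Sham, 75.2% in Young Bleo, 59.3% in sham mice of 18 months and 59.8% in Aged Bleo. Group medians of the Hox counts were 17, 14.5, 14.5 and 12 in the same order, so that Young Bleo was below Young Sham in Hox regions while both called about the same share of all regions. By cluster, the median HoxB count was 9 in Young Sham and 7 in Aged Sham, beside 6 in young and 5 in aged bleomycin mice, that of HoxA stayed between 5 and 5.5, and that of HoxD was highest in Young Bleo with 3. Sequencing lanes were taken from what appears to be a lane code in the list names, which the sample labels do not state. Read in this way, the lanes were shared unequally: lane 8 held all Young Sham samples and Young Bleo 4, lane 7 Young Bleo 1 to 3 and Aged Sham 1 to 3, and lane 6 Aged Sham 4 and all Aged Bleo samples. In this reading no lane held both aged mice and Young Sham samples, so that a difference between them adjusted for lane rests on the link through Young Bleo and Aged Sham.

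**Figure D3:**
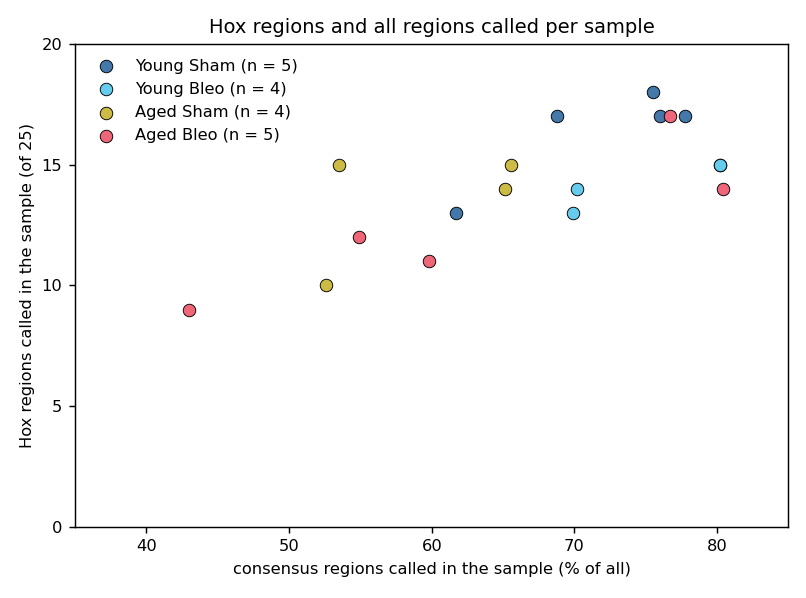
Hox regions called in each sample (of 25) against the share of all 47338 regions called in the same sample, in percent. Each point is a sample, coloured by group, and Young Bleo 2 and 3 coincide at 15. Aged Bleo 4, with 43.0% of all regions, called 9 Hox regions, and Young Sham 4, with 75.5%, called 18.

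To find regions gained or lost between groups, the samples that carried a peak were counted against those that lacked it in each of the 47338 regions by Fisher's exact test (two-sided). Regions whose exact p before adjustment was 0.05 or below counted as differentially called. In 0 of the 6 comparisons did any region, Hox or other, pass 0.05 after Benjamini-Hochberg adjustment over all regions, so the calls below rank regions and do not establish a change. Comparing Aged Sham with Young Sham, 1 Hox region of 25 (4%) was differentially called, against 5.17% of all regions. Of all regions differentially called in this comparison, 94.9% were called less often in Aged Sham. The Hox region was Hoxc8 -2939, with a peak in 0 of 4 Aged Sham and 4 of 5 Young Sham samples (two-sided Fisher's exact test, p = 0.0476, adjusted 0.922). Its fold enrichments where called were low, 5.79, 5.76, 5.72 and 6.77 in Young Sham 2 to 5, 6.41, 5.97 and 4.76 in Young Bleo 2 to 4, and 5.39 and 5.14 in Aged Bleo 1 and 5. The groups overlapped, since Young Sham 1 also lacked the peak, and leaving out any of 4 Aged Sham samples or any of Young Sham 2 to 5 ended the call, with p between 0.0286 and 0.143 over all samples left out in turn.

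Comparing Young Bleo with Young Sham, 2 Hox regions (8%) were differentially called, against 5.94% of all regions. Hoxd8 +283 was called in 3 of 4 Young Bleo and 0 of 5 Young Sham samples, with fold enrichments of 5.80, 4.53 and 5.26 in Young Bleo 1 to 3 and 5.00 in Aged Bleo 1, the only other sample with a peak there. Young Bleo 1 to 3 are the young mice of lane 7, while Young Bleo 4 and the 5 Young Sham samples, all without the peak, are those of lane 8, so that the call follows lane among the young mice. Aged Sham 1 to 3, also of lane 7, lacked the peak, and the part of lane in this call was not tested. Hoxb8 -2945, upstream of a gene of the blood lineage and the spinal cord, was called in 1 of 4 Young Bleo and 5 of 5 Young Sham samples. Its fold enrichments were 8.39, 8.32, 5.76, 9.16 and 8.46 in Young Sham 1 to 5, 6.34 in Young Bleo 1, 6.43 and 6.01 in Aged Sham 1 and 2 and 5.77 in Aged Bleo 1. Both tests gave p = 0.0476 (two-sided Fisher's exact test, adjusted 0.801), and both calls ended when any of Young Sham 1 to 5, or Young Bleo 2 or 3, was left out. Leaving out Young Bleo 1 ended the call of Hoxd8 +283, and leaving out Young Bleo 4 that of Hoxb8 -2945. With only peaks of -log10 q of at least 5, Hoxd8 +283 was no longer called (exact p = 0.167). Over the 25 regions the share of samples with a peak was lower in Young Bleo in 11, higher in 4 and equal in 10. Of all regions 20.4% were lower and 27.4% higher. The mean difference was -8.6 percentage points beside 3.18 over all regions, given as a description with no test. Against the same Young Sham samples, Aged Sham was lower in 10 and higher in 4 Hox regions, beside 38.4% and 10.05% of all regions. Aged Bleo was lower in 11 and higher in 3, beside 36.7% and 15.2%.

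Hoxb8 -2945 was also the single Hox region (4%) differentially called between Aged Bleo and Young Sham, with 1 of 5 against 5 of 5 samples (two-sided Fisher's exact test, p = 0.0476, adjusted 1), against 3.21% of all regions. Of all regions differentially called in this comparison, 93.75% were called less often in Aged Bleo. Leaving out any single sample kept the call of Hoxb8 -2945. The 3 comparisons with Young Sham share the same 5 control samples, so that the differential calls of Hoxb8 -2945 in the bleomycin groups are not independent of each other. Aged Bleo and Aged Sham differed in 0 Hox regions, against 0.885% of all regions.

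Pooling treatments, 1 Hox region (4%) was differentially called between 18 months and 2 months, against 4.99% of all regions. Of all regions differentially called in this comparison, 97.5% were called less often at 18 months. Hoxd8 -160 carried a peak in 1 of 9 aged and 7 of 9 young mice (two-sided Fisher's exact test, p = 0.0152, adjusted 0.693). Its fold enrichments were 4.97, 4.38 and 4.61 in Young Sham 2 to 4, 5.09, 4.26, 6.30 and 4.98 in Young Bleo 1 to 4 and 4.80 in Aged Sham 4. The 8 peaks rested on 11 to 20 fragments each. The median background coverage was 1.09 in Aged Sham and 1.14 in Aged Bleo, against 1.62 in Young Sham and 1.68 in Young Bleo. The part of depth in the call of Hoxd8 -160 was not tested. Pooling ages, 1 Hox region (4%) was differentially called between bleomycin and sham, against 3.40% of all regions. Hoxb1 +32357 was called in 1 of 9 bleomycin and 6 of 9 sham mice (two-sided Fisher's exact test, p = 0.0498, adjusted 1), with fold enrichments of 6.17, 7.07 and 4.91 in Young Sham 1, 3 and 4, 6.38, 7.30 and 4.73 in Aged Sham 1 to 3 and 4.19 in Aged Bleo 1. Both calls were kept when any single sample was left out. With only peaks of -log10 q of at least 5, Hoxd8 -160 was no longer called (exact p = 0.0824), while 1 other Hox region was differentially called between 18 and 2 months. With the same number of peaks taken from each list, the 21050 strongest, 12 Hox regions were left and 0 were differentially called in any of the 6 comparisons.

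Strength could be compared for the 9 Hox regions with a peak in all samples, among 17432 such regions. The log2 fold enrichment of the strongest peak was quantile-normalized and fitted with limma over all 18 samples, and a region was called at an adjusted p below 0.05. Hoxa5 +254 was higher after bleomycin. The fold enrichment of Hoxa5 +254 was 19.1, 17.9, 14.5, 17.2 and 19.9 in Young Sham 1 to 5, 20.7, 23.4, 24.2 and 20.5 in Young Bleo 1 to 4, 19.3, 20.5, 18.7 and 17.2 in Aged Sham 1 to 4, and 24.01, 27.4, 22.3, 21.2 and 21.2 in Aged Bleo 1 to 5. After normalization Hoxa5 +254 had a mean log2 strength of 4.11 ± 0.15 (SD, n = 5) in Young Sham and 4.26 ± 0.04 (SD, n = 4) in Aged Sham. After bleomycin it was 4.47 ± 0.08 (SD, n = 4) in young and 4.51 ± 0.05 (SD, n = 5) in aged mice. After normalization the 9 bleomycin samples, from 4.40 to 4.55, all lay above the 9 sham samples, from 3.91 to 4.34. Before it they overlapped, at 20.48 in Aged Sham 2 and 20.45 in Young Bleo 4. The share of all 17432 regions that separate in this way was not counted.

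By limma, Hoxa5 +254 was higher in Young Bleo than in Young Sham by 0.35 on the log2 scale (SE 0.07, adjusted p = 0.00356), the single Hox region called in that comparison, where 3.51% of all regions were called and 1.57% were called higher. It was higher in Aged Bleo than in Young Sham by 0.40 (SE 0.06, adjusted p = 0.000491), where 2 Hox regions were called, against 11.0% of all regions and 5.43% called higher. Between Aged Bleo and Aged Sham the difference was 0.25 (SE 0.07, limma adjusted p = 0.0668) and did not pass. Over both ages bleomycin and sham differed by 0.30 (SE 0.05, limma adjusted p = 0.000504), with 2 Hox regions called against 7.61% of all regions and 3.46% called higher. All 3 of these calls of Hoxa5 +254 held when any single sample was left out. The difference was 0.31 in lane 6 (5 bleomycin samples and 1 sham), 0.21 in lane 7 (3 and 3) and 0.28 in lane 8 (1 and 5). That the bleomycin samples lay above the sham samples in each lane follows from their separation over all samples and adds nothing on lane. In lane 7 the bleomycin mice were young and the sham mice aged. With lane as a term in the fit the difference over both ages was 0.30 (SE 0.08), limma's unadjusted p was 0.00116 and its adjusted p 0.332, and 0 of 17432 regions passed in any comparison. In the same fit the difference of Young Bleo from Young Sham was 0.28 (SE 0.11, limma adjusted p = 0.623). That of Aged Bleo from Young Sham was 0.38 (SE 0.18, limma adjusted p = 0.654), so that with lane the differences stayed in the same direction with larger SEs. There were 1423 regions at an unadjusted p below 0.05 between bleomycin and sham with the lane term.

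Hoxa4 -29 was also higher after bleomycin, in the aged mice and over both ages. Its fold enrichment was 21.8, 19.2, 16.3, 16.2 and 17.03 in Young Sham 1 to 5, 18.4, 21.9, 21.2 and 19.46 in Young Bleo 1 to 4, 15.2, 19.98, 17.7 and 14.6 in Aged Sham 1 to 4, and 23.9, 28.1, 20.1, 17.02 and 21.4 in Aged Bleo 1 to 5. The mean log2 strength of Hoxa4 -29 was 4.15 ± 0.12 (SD, n = 5), 4.32 ± 0.09 (SD, n = 4), 4.09 ± 0.15 (SD, n = 4) and 4.45 ± 0.11 (SD, n = 5) in the same order. Aged Bleo samples, from 4.31 to 4.59, lay above all sham samples after normalization, while Young Bleo overlapped both sham groups. Before normalization Aged Bleo 4, at 17.02, lay below Young Sham 1, at 21.8. The share of all regions that separate in this way was not counted. By limma, Hoxa4 -29 was higher in Aged Bleo than in Young Sham by 0.29 (SE 0.07, adjusted p = 0.0136) and than in Aged Sham by 0.35 (SE 0.08, adjusted p = 0.0304), the single Hox region called in the latter comparison, where 0.975% of all regions were called and 0.402% were called higher. Over both ages the difference was 0.26 (SE 0.06, limma adjusted p = 0.00535), and between Young Bleo and Young Sham it was 0.17 (SE 0.08, limma adjusted p = 0.251). The difference in Hoxa4 -29 between bleomycin and sham was 0.50 in lane 6, 0.18 in lane 7 and 0.17 in lane 8. With lane as a term the difference was 0.33 over both ages (SE 0.09, limma adjusted p = 0.332), and for Aged Bleo 0.49 against Young Sham (SE 0.21, limma adjusted p = 0.639) and 0.50 against Aged Sham (SE 0.13, limma adjusted p = 0.398). These were larger than without lane, and 0 passed. The call against Aged Sham also ended without Aged Bleo 1, 2 or 5 or Aged Sham 1, 3 or 4, with adjusted p up to 0.101.

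**Figure D4:**
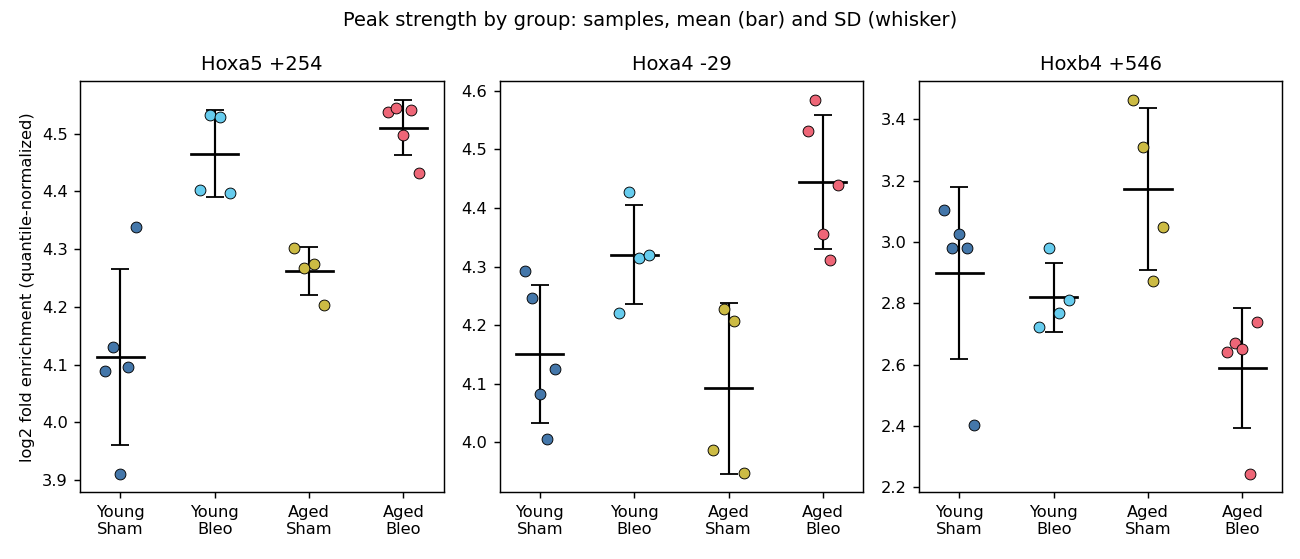
Peak strength of Hoxa5 +254, Hoxa4 -29 and Hoxb4 +546 by group. The vertical axes, which differ in range, give the quantile-normalized log2 fold enrichment, points are samples, horizontal bars are group means and whiskers the SD (n = 5, 4, 4 and 5). In Hoxa5 +254 the bleomycin samples, from 4.40 to 4.55, lie above all sham samples, which reach 4.34. The share of all regions that separate in this way was not counted.

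Hoxb4 +546 had the largest difference in the other direction and did not pass. The fold enrichment of Hoxb4 +546 was 9.99, 8.45, 8.05, 8.35 and 5.31 in Young Sham 1 to 5, 6.55, 8.58, 7.57 and 7.02 in Young Bleo 1 to 4, 10.3, 10.6, 6.49 and 8.05 in Aged Sham 1 to 4, and 6.30, 7.47, 6.08, 4.33 and 5.97 in Aged Bleo 1 to 5. Its log2 strength was 3.17 ± 0.26 (SD, n = 4) in Aged Sham. In Aged Bleo it was 2.59 ± 0.20 (SD, n = 5), below every Aged Sham sample. Before normalization Aged Bleo 2, at 7.47, lay above Aged Sham 3, at 6.49. The limma difference of Aged Bleo from Aged Sham was -0.58 (SE 0.15, adjusted p = 0.0582) and that of bleomycin from sham over both ages was -0.33 (SE 0.11, adjusted p = 0.0552). The difference in Hoxb4 +546 between Young Bleo and Young Sham was -0.08 (SE 0.15, limma adjusted p = 0.846). Within lanes the difference of Hoxb4 +546 between bleomycin and sham was -0.46 in lane 6, -0.39 in lane 7 and -0.09 in lane 8. Young Sham 5 stood apart here as in the number of called regions, at 2.40 against 2.98 or more in the other Young Sham samples.

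Hoxb1 +48148, the strongest region, passed in 0 of the 6 comparisons. Its fold enrichment was 24.1, 21.2, 20.6, 20.5 and 18.0 in Young Sham 1 to 5, 24.7, 21.9, 23.03 and 24.03 in Young Bleo 1 to 4, 21.6, 22.04, 20.9 and 21.1 in Aged Sham 1 to 4, and 19.5, 25.2, 25.6, 16.04 and 22.3 in Aged Bleo 1 to 5. The groups overlapped, Aged Bleo holding both the highest and the lowest value. The limma difference of Young Bleo from Young Sham was 0.17 (SE 0.08, adjusted p = 0.263).

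With age, 0 of the 9 Hox regions passed in either comparison. Between Aged Sham and Young Sham limma called 1.49% of all regions and between 18 and 2 months 4.02%, and at an unadjusted p below 0.05 there was 1 Hox region of 9 in each, beside 15.8% and 22.9% of all regions, Hoxa5 +254 in the first (0.15, SE 0.07, limma adjusted p = 0.278) and Hoxb1 +34271 in the second (0.25, SE 0.10, limma adjusted p = 0.154). The 95% interval of the difference between 18 and 2 months was -0.002 to 0.20 for Hoxa5 +254, -0.08 to 0.15 for Hoxa4 -29 and -0.15 to 0.08 for Hoxb1 +48148. The 4 remaining regions called in all samples, Hoxa3 +1289, Hoxa7 -3203, Hoxb5 -140 and Hoxb1 +42178, passed in 0 of the 6 comparisons, and limma gave an unadjusted p of 0.0860 or more for each of them throughout. Whether bleomycin acted differently at the 2 ages was tested as an interaction, in which limma called 0 of 17432 regions (0% of all regions), with 1628 (9.34%) at an unadjusted p below 0.05. The only Hox region among the latter was Hoxb4 +546, at -0.51 (SE 0.21, limma adjusted p = 0.457), and the interaction in Hoxa5 +254 was -0.10 (SE 0.10, limma adjusted p = 0.764).

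For genes that work with the Hox proteins, promoter calls were read against the same shares of all coding genes. Of 9 genes for TALE homeodomain cofactors, which bind DNA together with Hox proteins, 8 had a promoter called in all 18 samples, with Pknox1 at the 77.6th and Pbx3 at the 71.1st percentile in the median sample, and Meis3 was called in 5 samples, 2 Young Bleo and 3 Aged Bleo, a difference that was not tested. Of 16 Polycomb and Trithorax genes, 15 were called in all 18 samples, among them Ezh2, the methyltransferase of the Polycomb repressive complex, and Kmt2a, a Trithorax methyltransferase, and the histone demethylase gene Kdm6b was called in 2 Aged Bleo samples, which was not tested either. Of 19 homeobox genes outside the clusters, the promoter of Hhex was called in all 18 samples, that of Prox1, the regulator of lymphatic ECs, in 17, that of Meox2, a gene of vascular cells, in 13 and that of Gbx2 in 3, and 14 were called in 0, including Evx1 and Evx2, which lie at the 5′ end of HoxA and HoxD, and Cdx1, Cdx2 and Cdx4. The promoter of Meox2 was called in 5 of 5 Young Sham, 3 of 4 Young Bleo, 4 of 4 Aged Sham and 1 of 5 Aged Bleo samples, which was not tested here.

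The labelled cell type was checked at promoters. Of 10 endothelial genes 6, Cdh5, Kdr, Tie1, Erg, Cldn5 and Egfl7, were called in all 18 samples, Pecam1 in 17, Sox17 in 16, Tek in 15 and Vwf in 14. The samples called all 10 endothelial promoters in Young Sham and Young Bleo, 8 to 10 after sham at 18 months and 7 to 10 in Aged Bleo. Of 7 leukocyte genes, including Ptprc and Spi1, 0 were called in any sample. Of 7 epithelial genes only Foxj1 and of 8 mesenchymal genes only Pdgfra was called, each in all 18 samples, while Epcam, Sftpc, Nkx2-1, Col1a1, Col1a2, Pdgfrb, Tcf21 and Acta2 were called in 0. The counts of leukocyte, epithelial and mesenchymal promoters were the same in every sample, at 0, 1 and 1.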

How the data were processed

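Omni-ATAC-seq was measured in lung ECs of 18 mice. The authors mapped paired-end reads to mm10 with BWA, removed duplicates with Picard and ran MACS2 on every sample by itself (FDR 1%), without pooling replicates. The deposited fold enrichment is a ratio, coverage of the summit over that of its surroundings in the same library, as the authors' peak caller wrote it. The -log10 p and q columns that were deposited come from the Poisson test of that caller. The deposited score, a rescaled -log10 q, was not used. Read counts and library totals were not used, so that the authors' DiffBind analysis was not repeated, and 19 mitochondrial peaks in 5 lists were left out.

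Regions were annotated with 45756 RefSeq NM and NR transcripts. Fragments at each summit were solved from fold enrichment and -log10 p (within 0.01, for -log10 p up to 250), which succeeded for at least 99.986% of peaks. Presence of a peak was compared by two-sided Fisher's exact tests (scipy 1.17.1), and strength by limma 3.58.1 in R 4.3.3 (eBayes with trend), both over all regions with Benjamini-Hochberg adjustment and both tested on simulated data. Lists of 4 or 5 mice limit the precision, and the smallest p of Fisher's exact test with such groups was 0.00794.

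Regions described in full were the strongest of each cluster, up to 3 with the smallest Fisher p in each comparison and direction, and those called by limma, and Hoxa10 +319 and Hoxb4 +546 were added after their values were seen. The members, the gene lists and the motifs were chosen with earlier results of these data known. The alternatives tried were a stricter -log10 q (5 or more), the same number of peaks per list, regions in at least 3 samples, peaks covering 50% of a region, other annotations, median centring, lane, a replicate block and each sample left out in turn. Some genes of the lists and 1 sequence are not reported here.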

Additional observations from a re-analysis of the deposited data

Results flagged for a closer look

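In groups of 4 or 5 samples, the gap of the most distant sample to its nearest neighbour was compared with Dixon's 95% critical value for 40 sets of values, of which 5 exceeded it, while chance gives about 1 in 20. Young Sham 5 exceeded it 3 times. It called 13 Hox regions against 17 to 18 in the other Young Sham samples, and the log2 strength of its peak was 4.20 against 4.39 to 4.45 in Hoxb1 +48148 and 2.40 against 2.98 to 3.10 in Hoxb4 +546. Aged Sham 3 had a log2 strength of 2.61 in Hoxa3 +1289, against 3.17 to 3.24 in the other Aged Sham samples. Aged Bleo 4, the sample with the fewest peaks, had 2.24 in Hoxb4 +546, against 2.64 to 2.74 in the other Aged Bleo samples.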

How the results depend on the processing

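The number of Hox regions was 25 and changed most with the annotation and the number of peaks: it was 39 with coding transcripts only, 13 of them in all samples, and 12, with 4 in all samples, when 21050 peaks were taken from each list. When peaks had to cover 50% of a region, 2 Hox regions were called in all samples. Leaving out samples gave 23 to 26 regions, with 9 in all samples each time.

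With the same number of peaks per list the differential calls were 0 in every comparison. With 50% cover they were 4 between 18 and 2 months and 4 between Aged Bleo and Young Sham. With a -log10 q of at least 5 there was 1 between Young Bleo and Young Sham. With every region inside the clusters there were 0 between bleomycin and sham. Hoxb1 +32357, the region called in that comparison, lies beyond the last Hox TSS and is not counted under that rule. Its own test was unchanged (two-sided Fisher's exact test, p = 0.0498). Leaving out 1 sample gave 1 to 2 calls between 18 and 2 months, 1 to 4 between Aged Bleo and Young Sham (4 without Young Sham 5, 2 without Young Sham 1 or 4 or Aged Bleo 1), 0 to 1 between Aged Sham and Young Sham, 1 to 2 between bleomycin and sham and 0 to 2 between Young Bleo and Young Sham.

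For strength, the lane term left 0 Hox regions in each of the 4 comparisons that had any. Leaving out 1 sample gave 0 to 2 between Aged Bleo and Aged Sham (2 without Young Sham 5). It gave 2 to 3 between Aged Bleo and Young Sham (3 without Young Sham 5). Between bleomycin and sham it also gave 2 to 3 (3 without Young Sham 5 or Aged Sham 3). The counts of the other comparisons did not change. The fitted differences of the called regions kept their direction under each of the alternatives run.

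Same-numbered samples did not clearly deviate together (median r 0.03 over 25 pairs, 3 above 0.1). Samples of other numbers had a median r of -0.004 over 96 pairs, 21 above 0.1. The labels do not state whether the numbers pair the samples, and these correlations cannot decide it. As a replicate block in limma the numbers left the Hox calls at 1 between Young Bleo and Young Sham, 2 between Aged Bleo and Young Sham, 1 between Aged Bleo and Aged Sham, 2 between bleomycin and sham and 0 in the others. As a replicate block in exact sign tests over 8 pairs, Hoxd8 -160 was kept with 1 call between 18 and 2 months and 0 remained between bleomycin and sham, and groups of 4 or 5 pairs cannot reach 0.05. The causes of these changes were not tested.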
